A study of Mus musculus with 4 samples.

Results

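The genes of B cell follicles and germinal centres described here were 7 symbols picked by name from the 26214 listed in each count table: Cr2, Fcer2a, Cxcl13, Cxcr5, Bcl6, Mfge8 and S1pr2. They were proposed with the difference between extract and saline libraries already known, so that difference is given for them as a description, without a p-value. RNA was sequenced from the stromal vascular fraction of inguinal white fat, the cells left after fat is digested and the floating adipocytes are removed. Of 4 libraries, 2 were labelled as biological replicates of mice treated with MHE, a medicinal herb extract, and 2 as replicates of mice treated with PBS, the saline buffer. The labels used here give no strain, age, diet, dose, duration or composition of the extract. All 7 genes passed the low-count filter that left 16196 genes for testing.

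B cell follicles are the B cell zones of lymph nodes, spleen and other lymphoid tissue. Stromal and follicular dendritic cells there secrete the chemokine CXCL13, which draws in cells that carry its receptor CXCR5, namely B cells and follicular helper T cells. Follicular dendritic cells hold complement-coated antigen through complement receptors, and activated B cells that switch on the transcriptional repressor BCL6 form germinal centres, where S1PR2 keeps them in place and dying cells are cleared with the help of MFGE8. Several of these genes also have uses outside follicles: Mfge8 in smooth muscle and macrophages, S1pr2 in vessels and macrophages, and Bcl6 in many cell types.

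The RefSeq promoter table (GRCm38.p6, the assembly behind mm10) held windows from 250 bases before to 50 bases after a start site for 6 of the 7 genes, and Cxcr5 is named only. Those of Cr2, Fcer2a and Cxcl13 are shown because these 3 genes stood higher in both extract libraries, and that of Mfge8 because it stood lower in both. Capitals mark matches, on either strand, to 5 motifs: the PU.1-type core GAGGAA, the octamer ATGCAAAT, the STAT-type palindrome TTCNNNGAA, the kappaB form (GGGA and CC with 4 bases between) and the TATA form TATAAA.
Cr2 (chr1:195176670-195176969, minus strand): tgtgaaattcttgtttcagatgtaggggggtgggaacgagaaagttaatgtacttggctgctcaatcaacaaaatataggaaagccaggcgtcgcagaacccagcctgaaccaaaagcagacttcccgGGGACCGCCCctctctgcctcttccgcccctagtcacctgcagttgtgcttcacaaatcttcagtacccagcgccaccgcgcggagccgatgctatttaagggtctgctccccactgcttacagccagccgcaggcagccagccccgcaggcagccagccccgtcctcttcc
Fcer2a (first of 3 start sites, chr8:3694125-3694424, minus strand): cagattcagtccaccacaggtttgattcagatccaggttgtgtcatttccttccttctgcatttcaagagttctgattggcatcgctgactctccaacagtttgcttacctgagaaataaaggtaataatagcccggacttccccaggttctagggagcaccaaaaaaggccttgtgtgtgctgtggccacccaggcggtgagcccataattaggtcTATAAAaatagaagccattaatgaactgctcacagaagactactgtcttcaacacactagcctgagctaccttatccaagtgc
Cxcl13 (chr5:95956689-95956988, plus strand): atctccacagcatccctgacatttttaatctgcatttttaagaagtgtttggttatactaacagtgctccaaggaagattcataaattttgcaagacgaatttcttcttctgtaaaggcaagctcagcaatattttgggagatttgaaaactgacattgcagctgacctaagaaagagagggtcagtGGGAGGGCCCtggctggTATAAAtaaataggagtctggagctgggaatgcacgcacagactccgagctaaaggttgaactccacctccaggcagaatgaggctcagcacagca
Mfge8 (chr7:79149011-79149310, minus strand): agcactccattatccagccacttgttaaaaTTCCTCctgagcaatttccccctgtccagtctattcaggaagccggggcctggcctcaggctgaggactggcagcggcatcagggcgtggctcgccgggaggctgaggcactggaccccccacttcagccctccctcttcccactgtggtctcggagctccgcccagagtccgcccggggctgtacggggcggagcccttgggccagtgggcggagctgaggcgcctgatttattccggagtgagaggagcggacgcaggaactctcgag
The windows of Cr2 and Cxcl13 each held the kappaB form once, as did 20.7% of the 32841 windows of the same length. Cxcl13 and the first start site of Fcer2a held TATAAA, found in 13.6% of windows, and Mfge8 held the PU.1-type core, found in 28.3%. In none of the 4 printed windows was the octamer (1.74% of windows) or the STAT-type palindrome (8.3%) found, whereas the second start site of Bcl6 held the palindrome 3 times and its first start site held it once. No 2 matches overlapped in the printed windows. A match to letters is a description of the window and not a binding site.

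Cr2, Fcer2a, Cxcr5 and Cxcl13 were all higher with the extract than with saline, Mfge8 was lower, and in Bcl6 and S1pr2 the groups overlapped. Levels are CPM, read counts scaled to composition-corrected (TMM) library sizes, and log2 fold changes are extract minus saline from edgeR's quasi-likelihood fit over all genes, with their standard error (SE). At an adjusted p threshold of 0.05, 4 of the 7 genes passed, all 4 higher, where 4.93% of all tested genes passed, 3.97% higher and 0.963% lower. Since the genes were chosen on this contrast, nothing is read from their count. The median log2 fold change of the 7 was 2.38, against -0.02 over all tested genes. In bulk RNA, more cells of a type and more RNA per cell cannot be told apart.

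Cr2 (chr1:195136811-195176880 in GRCm38.p6, the build of all positions here) encodes, in mice, both complement receptors 1 and 2 of B cells and follicular dendritic cells. It was at 113 and 111 CPM in MHE replicates 1 and 2, and at 1.37 and 0.203 CPM in PBS replicates 1 and 2. The groups were far apart, with the extract libraries nearly equal and the saline libraries differing 6.76-fold from each other. The saline levels rest on 38 and 6 counts, with exact Poisson 95% intervals of 26.9 to 52.2 and 2.2 to 13.1 that cover counting error only. Its log2 fold change was 7.15 ± 0.82 (SE), from 112 ± 1.48 CPM with the extract, against 0.787 ± 0.827 CPM with saline (SD, n = 2 each), and it ranked 45 of 16196 from the highest.

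Fcer2a (chr8:3680280-3694174) encodes CD23, the low-affinity IgE receptor of mature follicular B cells. It stood at 161 and 92.1 CPM in MHE replicates 1 and 2, against 2.996 and 0.372 CPM in PBS replicates 1 and 2. Again no library of one group reached the range of the other, and here the extract libraries differed 1.75-fold and the saline libraries 8.06-fold. The saline counts were 83 and 11, and the log2 fold change was 6.24 ± 1.01 (127 ± 48.9 CPM with the extract, 1.68 ± 1.86 CPM with saline).

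The chemokine and its receptor differed in how far they were apart. Cxcr5 (chr9:44511787-44526444) was at 122 and 102 CPM with the extract, and at 6.79 and 1.59 CPM with saline, a log2 fold change of 4.75 ± 0.73 (112 ± 14.1 and 4.19 ± 3.68 CPM). Cxcl13 (chr5:95956939-95961068) was at 99.4 and 62.5 CPM with the extract, and at 18.2 and 12.9 CPM with saline, a log2 fold change of 2.38 ± 0.33 (80.9 ± 26.1 and 15.5 ± 3.71 CPM). For both genes the groups did not overlap. The saline libraries differed 4.27-fold in the receptor and 1.41-fold in the ligand. Of the 4 higher genes, Cxcl13 thus differed least between these 2 libraries. It was also the one with the most saline counts, 503 and 382.

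Mfge8 (chr7:79133768-79149060) encodes a secreted protein that bridges phosphatidylserine on dying cells to integrins of phagocytes. It was at 364 and 370.3 CPM in MHE replicates 1 and 2, and at 1063 and 875 CPM in PBS replicates 1 and 2. Both extract libraries lay below both saline libraries, and replicates agreed within 1.21-fold in saline. The log2 fold change was -1.40 ± 0.30 (367 ± 4.58 CPM with the extract, 969 ± 133 CPM with saline), and the gene did not pass the threshold. Beside it, the summed level of the 8 smooth muscle and pericyte markers was 483 to 832 CPM with the extract, against 2820 to 3231 CPM with saline, with a median log2 fold change of -2.24 (-1.16 without PBS replicate 1). All 8 of those markers had negative values, and Lmod1, an actin filament nucleator, fell (adjusted p = 0.0355). Acta2, smooth muscle actin, was at 126 and 295 CPM with the extract, against 1025 and 2214 CPM with saline. It made up most of the sum in PBS replicate 2. Cnn1 was at 1.32 and 2.42 CPM with the extract, against 338 and 2.40 CPM in PBS replicates 1 and 2. Smaller differences were those of Rgs5 (-0.77 ± 0.43), Pdgfrb (-0.63 ± 0.46) and Cspg4 (-0.77 ± 0.64). Lmod1 lost its call without either extract library. The endothelial and mature adipocyte markers, 8 of each, were also all negative, at medians of -0.64 and -0.69. The parts of smooth muscle, endothelium and adipocytes in the Mfge8 difference were not tested.

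Bcl6 (chr16:23965050-23988866) encodes the repressor that germinal centre B cells and follicular helper T cells need. It was at 72.0 and 85.3 CPM with the extract, and at 33.4 and 82.9 CPM with saline, so PBS replicate 2 lay between the extract libraries and PBS replicate 1 below them. The log2 fold change of 0.44 ± 0.45 (78.7 ± 9.41 and 58.2 ± 35.0 CPM) did not pass. It was -0.09 without PBS replicate 1 and 1.24, then past the threshold, without PBS replicate 2.

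S1pr2 (chr9:20965952-20976793) encodes the sphingosine phosphate receptor that holds germinal centre B cells in the follicle. It was at 13.6 and 21.5 CPM with the extract, and at 33.7 and 10.3 CPM with saline, so both extract libraries fell between the saline libraries. The log2 fold change was -0.33 ± 0.60 (17.5 ± 5.59 and 22.0 ± 16.6 CPM), did not pass, and turned to 0.75 without PBS replicate 1. The 4 libraries had the same order in S1pr2 as in the summed level of the 8 macrophage markers. That sum was 1697 and 2122 CPM in MHE replicates 1 and 2 and 2974 and 1288 CPM in PBS replicates 1 and 2. Lyz2 made up most of it, at 1226 and 1316 CPM in the MHE and 1976 and 689 CPM in the PBS replicates. Among single markers, Lyz2 and Fcgr1 had this order, and Adgre1, Cd68, Csf1r, Mertk, Cd163 and Mrc1 did not. Of those 8 markers, 0 passed with edgeR or DESeq2 and 0 had an unadjusted p below 0.05 (median log2 fold change -0.05), and the part of macrophages in the S1pr2 levels was not tested.

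**Figure D1:**
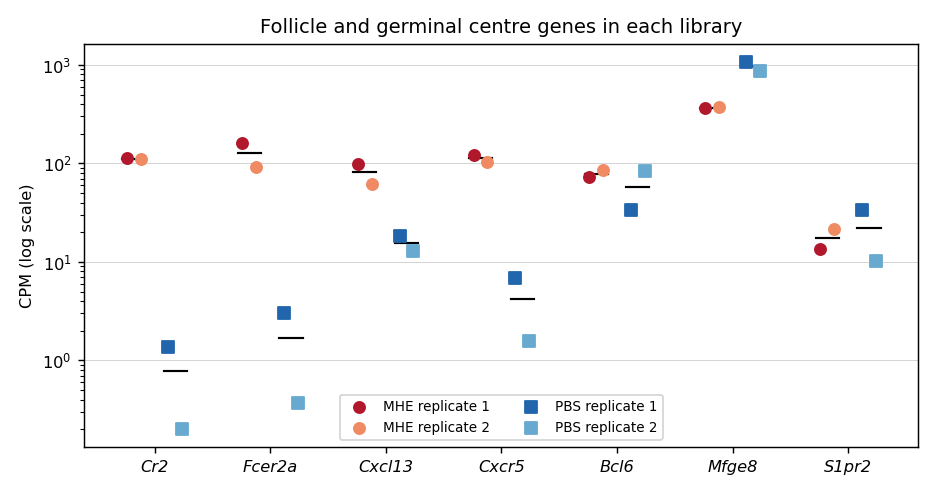
Level of each gene in CPM (log axis) in MHE replicates (circles, left) and PBS replicates (squares, right), with black bars at group means of n = 2. Cr2, Fcer2a, Cxcl13 and Cxcr5 lie higher in both extract libraries (Cr2 at 113 and 111 CPM, against 1.37 and 0.203 CPM with saline), Mfge8 lies lower, and the groups overlap in Bcl6 and S1pr2.

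The groups thus did not overlap in 5 of the 7 genes, 4 higher and 1 lower, where 62.0% of all tested genes did not overlap, 33.1% higher and 28.9% lower. Leaving out a library moved the 4 higher genes and Mfge8 in size but not in direction. Bcl6 and S1pr2 changed sign without PBS replicate 1. Without PBS replicate 1, which had the higher saline level of each, Cr2, Fcer2a and Cxcr5 had log2 fold changes of 9.06, 8.38 and 6.12, and without PBS replicate 2 they had 6.35, 5.41 and 4.06. Cxcl13 had 2.02 without MHE replicate 1 and 2.69 without MHE replicate 2. Without either extract library no gene in the whole table passed edgeR's quasi-likelihood test, where 2352 (without MHE replicate 1) and 2596 (without MHE replicate 2) had an unadjusted p below 0.05; with all 4 libraries 799 passed and 4626 were below 0.05 unadjusted.

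**Figure D2:**
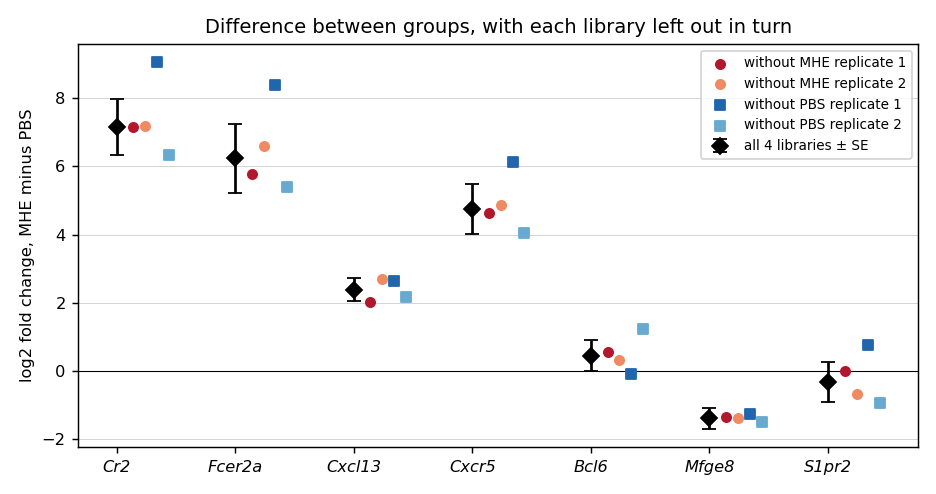
Log2 fold change (extract minus saline) of each gene, with diamonds and SE bars for all 4 libraries and coloured points with 1 library left out. Cr2, Fcer2a and Cxcr5 spread most with the saline library left out (6.35 to 9.06 for Cr2), Mfge8 stays negative, and Bcl6 and S1pr2 change sign without PBS replicate 1.

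Levels of different genes were compared per kilobase of exon (union of GENCODE M21 exons), which assumes gene models close to those the authors counted. With the extract the order of mean CPM per kilobase was Mfge8 (78.2), Cxcl13 (70.4), Fcer2a (41.0), Cxcr5 (33.7), Cr2 (13.8), Bcl6 (11.7) and S1pr2 (2.20). With saline it was Mfge8 (206), Cxcl13 (13.5), Bcl6 (8.68), S1pr2 (2.76), Cxcr5 (1.26), Fcer2a (0.545) and Cr2 (0.0970). Neighbours whose libraries overlapped with the extract were Mfge8 and Cxcl13 (77.5 to 78.9 and 54.3 to 86.4), and Fcer2a and Cxcr5. In saline, Cxcl13 overlapped Bcl6, and in the run S1pr2, Cxcr5, Fcer2a, Cr2 each gene overlapped its neighbour. So Cxcr5, Fcer2a and Cr2 held the last places with saline and stood above Bcl6 and S1pr2 with the extract.

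Set against B cell markers, the genes took different levels. The summed CPM of 12 B cell markers was 2231 and 1894 in MHE replicates 1 and 2 and 247 and 220.5 in PBS replicates 1 and 2, but Ebf1, which preadipocytes also use, made up 4.39% and 7.77% of it with the extract and 47.8% and 95.2% with saline. The sum of the B cell surface genes Ms4a1, Cd79a and Cd79b was 1037 and 788 CPM with the extract, against 68.9 and 2.84 CPM with saline, the last on 84 counts. Relative to that sum, Cr2 stood at 10.9% and 14.04% with the extract and 1.99% and 7.14% with saline, while Fcer2a stood at 15.6% and 11.7% with the extract against 4.35% and 13.1% with saline. Cxcr5 was at 11.8% and 12.99% with the extract against 9.84% and 55.95% with saline, so Fcer2a and Cxcr5 overlapped between the groups. The Cr2 value of PBS replicate 2 rests on 6 counts against 84, with an exact binomial 95% interval of 2.55% to 16.2%. That interval covers both extract values, so it was not distinguishable from them at this depth. For PBS replicate 1, on 38 counts against 1910, the interval was 1.40% to 2.74%, below both extract values. Both intervals cover counting error only. Cxcl13 was at 9.59% and 7.93% with the extract against 26.3% and 455% with saline. Bcl6, Mfge8 and S1pr2 were likewise lower relative to B cell genes in both extract libraries. Because the sum itself was far higher with the extract, any gene that did not rise as far comes out lower, so nothing is read from this. Of the 12 B cell markers, the log2 fold change was positive in 11, at a median of 4.61 (7.67 without PBS replicate 1). Of the 12, 2 passed, Bank1 and Cd22 (the last not without the low-count filter, adjusted p = 0.0727 with edgeR), and with DESeq2 10 did. In the same libraries 10 of 11 tested T cell markers passed, all higher.

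**Figure D3:**
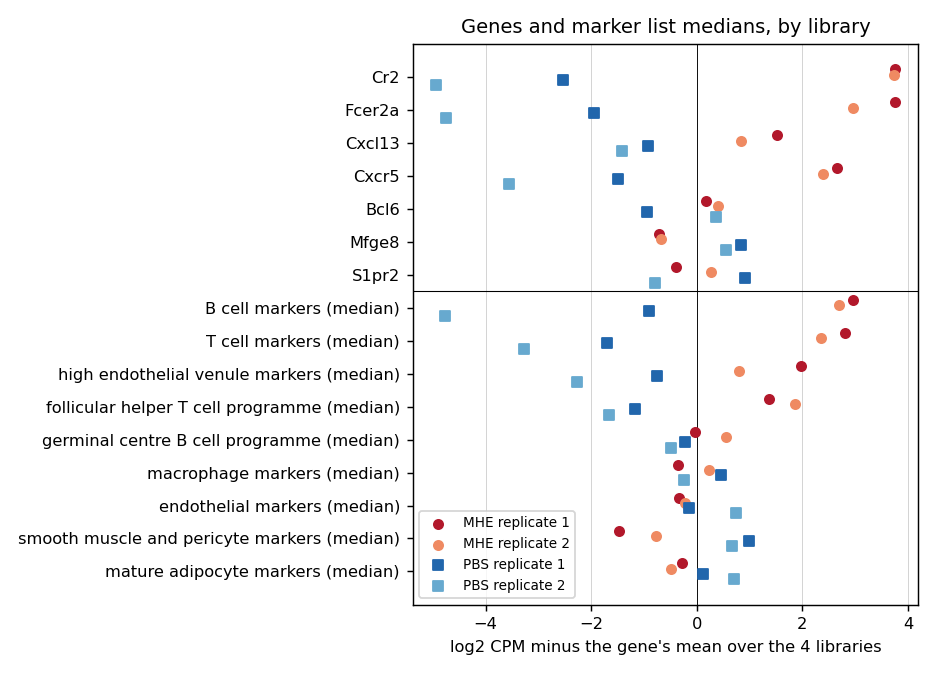
Log2 CPM of each gene, and median over the tested genes of marker lists (members left out), after subtracting each gene's mean over the 4 libraries; circles are MHE and squares PBS replicates. Cr2, Fcer2a and Cxcr5 share with the B and T cell medians a PBS replicate 2 below PBS replicate 1, and Cxcl13 has a narrower range. Mfge8 is lower in both extract libraries, as are the smooth muscle, endothelial and mature adipocyte medians.

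Of 17 listed germinal centre B cell genes, 14 were tested and 1 rose, Bach2, a repressor that delays plasma cell fate (79.1 ± 8.03 CPM with the extract, 6.96 ± 0.194 CPM with saline, log2 fold change 3.51 ± 0.21, adjusted p = 0.0192). Bach2 is also expressed in naive B and T cells. The list's median was 0.43, and 10 of 14 were positive. Myc, which selected germinal centre B cells switch on, had 1.34 ± 0.25 (adjusted p = 0.0502), and Neil1, a DNA repair glycosylase, and Ezh2, a histone methyltransferase, both had 0.99 ± 0.24 (adjusted p = 0.0782 and 0.0785). Without either extract library none passed, and with either saline library left out the list had 4 higher calls and medians of 1.03 (PBS replicate 1 out, 2 then lower) and 1.06 (PBS replicate 2 out), and DESeq2 called 5 higher. The median was also 1.03 without MHE replicate 1.

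Of that list, 3 genes known from germinal centre B cells had most of their counts in MHE replicate 2, and were singled out after their values were seen. Rgs13, a G protein regulator of germinal centre B cells, had 8 and 45 counts in MHE replicates 1 and 2, against 4 and 0 counts in PBS replicates 1 and 2. Mef2b, a transcription factor upstream of Bcl6, had 6 and 38 counts against 2 and 3, and Nuggc, a nuclear GTPase of germinal centre B cells, had 9 and 43 counts against 6 and 7. In each of these 3 genes MHE replicate 2 was highest, and MHE replicate 1 was no higher than 9 counts. Mef2b shares exonic bases with Borcs8. Rgs13, Mef2b and Nuggc did not pass the count filter. Cr2, at 113 and 111 CPM, did not share this difference between the extract libraries, and Fcer2a and Cxcl13 were lower in MHE replicate 2. S1pr2, Bcl6 and, by little, Mfge8 were higher in MHE replicate 2 than in MHE replicate 1. Gcsam, a signalling adaptor of germinal centre B cells, was at 8.76 and 9.79 CPM with the extract, against 2.31 and 0.304 CPM with saline, and did not pass (adjusted p = 0.13).

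**Figure D4:**
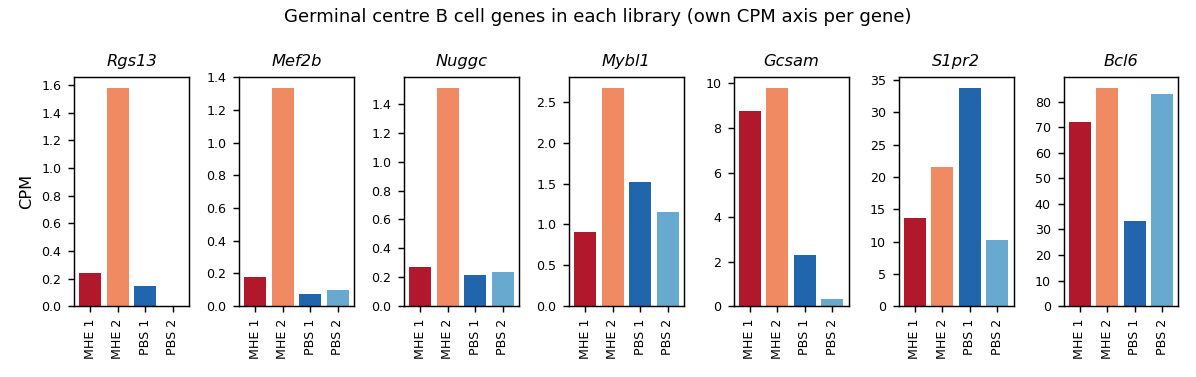
CPM in each library (bars; own linear axis for each gene, from 0) of germinal centre B cell genes, with MHE replicates left of PBS replicates. Rgs13, Mef2b and Nuggc are highest in MHE replicate 2 (Rgs13 on 45 counts) and low in the others, whereas S1pr2 is highest in PBS replicate 1 at 33.7 CPM and Bcl6 lowest there at 33.4 CPM.

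Of 14 listed genes of follicular helper T cells, 13 were tested, all 13 were positive (median 3.94), and 6 rose, Cxcr5 among them. Of the 11 tested that are no members, 5 rose. Maf (0.19 ± 0.29), Cd200 (0.21 ± 0.19), Il6ra (0.24 ± 0.41) and Bcl6 (0.44 ± 0.45) did not pass. In the same libraries 10 of 11 tested T cell markers passed, at a median of 5.01. The part of T cells at large in the follicular helper values was not tested. Icos, a costimulatory receptor, was at 36.6 ± 2.81 CPM with the extract, against 1.11 ± 1.19 CPM with saline (5.05 ± 0.85, adjusted p = 0.0454, or 0.0674 when no low-count filter was applied). Cd40lg, the helper signal to B cells, rose by 4.88 ± 0.55 and Sh2d1a, the adaptor SAP, by 3.94 ± 0.45 (adjusted p = 0.0248 each), and Tox2, a transcription factor, by 2.34 ± 0.40 (adjusted p = 0.046). Pdcd1, the inhibitory receptor PD-1, rose to 4.21 and 7.30 CPM with the extract, against 0.902 and 0.608 CPM with saline (adjusted p = 0.0478). Il21, the cytokine by which these cells drive germinal centres, had 12 and 18 counts with the extract and 0 counts in both saline libraries, at least 9.31-fold higher against a floor of 3 counts over the saline group (adjusted p = 0.0839). Without that filter 4 of the 6 passed, since Cxcr5 lost its call too. Sh2d1a and Il21 share exonic bases with genes on the opposite strand, and without known strand use their reads cannot be told apart. All of these calls were lost without either extract library.

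Of 12 genes of follicular dendritic cells, 5 rose (8 with DESeq2), 3 of them the members Cr2, Fcer2a and Cxcl13, which were chosen on this contrast. Of the 8 genes of the list that are no members, 2 rose (median 1.78, against 1.98 for all 12). These were the adhesion molecules Vcam1, at 237 ± 20.2 CPM with the extract, against 47.4 ± 10.1 CPM with saline (2.32 ± 0.26, adjusted p = 0.0248), and Icam1, at 108 ± 10.6 against 28.7 ± 0.249 CPM (1.91 ± 0.20, adjusted p = 0.0219). Madcam1, an addressin of follicular stroma and mucosal vessels, had 58 and 54 counts with the extract and 0 and 6 with saline (adjusted p = 0.112). Bst1, a surface enzyme of bone marrow and lymphoid stroma, had 1.64 ± 0.48 (adjusted p = 0.113). Clu, clusterin, was at 400 and 291 CPM against 140 and 26.6 CPM (2.05 ± 0.79, adjusted p = 0.173), and its saline libraries were far apart. Mfge8, also of this list, ran the other way. Vcam1 and Icam1 are widely used by endothelium and stroma, and both overlap antisense gene models.

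Of 14 lymphotoxin and TNF pathway genes, 6 rose (median 2.42, or 3.08 without PBS replicate 1). Among ligands, Lta, a lymphotoxin subunit, was at 10.2 and 7.83 CPM with the extract, against 0.505 and 0.0676 CPM with saline (4.97 ± 0.86, adjusted p = 0.0474). Ltb, the other subunit, was at 256 and 173 CPM against 9.93 and 0.676 CPM and did not pass (adjusted p = 0.0767). Ltbr, their receptor on stroma, had a log2 fold change of -0.70 ± 0.18 (adjusted p = 0.0912), at 36.4 ± 1.93 CPM with the extract, against 59.2 ± 2.97 CPM with saline, and Tnfrsf1a, the TNF receptor, had -0.38 ± 0.23. Of the alternative NF-kB arm downstream, Relb (1.65 ± 0.18, adjusted p = 0.0242), Nfkb2 (1.67 ± 0.19, adjusted p = 0.0248) and the kinase Map3k14 (2.09 ± 0.36, adjusted p = 0.0459) rose. Relb was at 57.5 and 54.6 CPM with the extract, against 17.9 and 17.8 CPM with saline. Tnfrsf13b, which encodes TACI, a receptor of B cells for BAFF and APRIL, rose by 3.16 ± 0.48 (adjusted p = 0.0395).

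Of 15 other positioning genes, 14 were tested and 5 rose (median 1.66, or 2.06 without PBS replicate 1). Ccr7, which takes lymphocytes to the T cell zone, was at 144 ± 13.7 CPM with the extract, against 3.90 ± 4.03 CPM with saline (5.21 ± 0.91, adjusted p = 0.048, or 0.0787 when no low-count filter was applied). Cxcr4, the receptor of the germinal centre dark zone and of many other cells, rose by 2.24 ± 0.22 (adjusted p = 0.0212). Arhgef1, the exchange factor through which S1PR2 signals, rose to 201 ± 21.6 CPM with the extract, against 55.8 ± 2.59 CPM with saline (adjusted p = 0.0248), while Gna13, the G protein between them, had 0.54 ± 0.23 (adjusted p = 0.193). S1pr4, a lymphocyte member of the same receptor family, rose by 3.84 ± 0.39 (adjusted p = 0.0218); the difference from S1pr2 was not tested. Ccl21a, the T cell zone chemokine, was at 630 and 375 CPM with the extract, against 124 and 1.22 CPM with saline and did not pass (adjusted p = 0.319), and Ccl19 had 0 counts in every library. Ccl21a has near-identical copies in mice, among which its reads could be split. As the counting program is not named, the 0 counts of Ccl19 do not show that its RNA was absent.

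Among 12 partners and antagonists of BCL6, 2 rose (median 0.42). Bcor, a corepressor that BCL6 recruits, was at 71.2 ± 1.49 CPM with the extract, against 21.1 ± 2.92 CPM with saline (1.75 ± 0.20, adjusted p = 0.0248). Irf4, which opposes BCL6 in plasma cell differentiation, was at 66.5 ± 18.3 against 16.04 ± 5.28 CPM (2.05 ± 0.34, adjusted p = 0.0439). Prdm1, the plasma cell repressor of Bcl6, had 0.75 ± 0.71 (adjusted p = 0.523), Socs2, a cytokine signalling inhibitor, 1.2 ± 0.23 (adjusted p = 0.0521) and Stat5a, which opposes Bcl6, 0.44 ± 0.20 (adjusted p = 0.213). Bcl6 itself, at 0.44 ± 0.45, sat at the list's median.

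Of 13 genes of apoptotic cell uptake, 4 rose and 9 were negative (median -0.08, or 0.07 with library totals alone). Timd4, a phosphatidylserine receptor of resident macrophages, was at 129 and 88.0 CPM with the extract, against 2.17 and 1.72 CPM with saline (5.80 ± 0.33, adjusted p = 0.0192). Itgb3, a subunit of an integrin that binds MFGE8, rose (33.4 ± 3.56 against 7.97 ± 1.06 CPM, adjusted p = 0.0242), while Itgb5, of its partner integrin, had -1.33 ± 0.32 (79.0 ± 29.1 against 199 ± 11.9 CPM, adjusted p = 0.0796). Stab2, a scavenger receptor of sinus endothelium, rose by 2.9 ± 0.42 (adjusted p = 0.0375) and Elmo1, an engulfment adaptor, by 1.53 ± 0.21 (adjusted p = 0.0326). The bridging ligand Gas6 (-0.03 ± 0.28) and the kinases Axl (-0.01 ± 0.25) and Mertk (-0.08 ± 0.27) did not pass.

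None of 11 partners of complement receptor 2 and CD23 passed edgeR's test (median 0.83, or 0.26 without PBS replicate 2; 8 positive), 6 had an unadjusted p below 0.05, DESeq2 called 5 higher and 1 lower, and limma-voom called 2 higher. The nearest were Vav1, a signalling protein of antigen receptors (2.35 ± 0.48, adjusted p = 0.0594), Cd55, a complement regulator (1.29 ± 0.29, adjusted p = 0.0686), the kinase Lyn (0.87 ± 0.22, adjusted p = 0.0845) and Cfp, properdin (0.83 ± 0.21, adjusted p = 0.0861). C3, the source of the ligand of complement receptor 2, was at 846 and 1249 CPM with the extract, against 1125 and 381 CPM with saline. Adam10, the protease that sheds CD23, had 0.13 ± 0.22.

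The genes whose library profiles were most like each member were found by the root-mean-square distance between centred log2 CPM over the 4 libraries, among 14752 tested genes. Nearest to Cxcr5 were Lta (0.048) and the T cell kinase Txk (0.062), nearest to Fcer2a were Fcmr, the IgM receptor (0.158), and Treml2 (0.189), and nearest to Cr2 was the desmosomal cadherin Dsc3 (0.363). Cxcl13 was most like Clnk (0.058) and Sfn (0.081), and Mfge8 most like Csrp1, a smooth muscle LIM protein (0.027), and Itpka (0.049). S1pr2 was most like the ester hydrolase Nceh1 (0.074) and Smim3 (0.082), and Bcl6 most like Nat8f6 (0.036) and Grin2d (0.038). Some of these were at low levels, so their profiles are uncertain. Their highest levels in any library were 1.02 CPM for Clnk, 2.56 for Itpka, 0.491 for Nat8f6 and 0.843 for Grin2d. Among the members, Cr2 and Fcer2a were closest (0.49) and Cr2 and Mfge8 farthest apart (4.50). With 4 libraries that share 2 groups, such distances describe these libraries only.

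Libraries held 27161882 to 33391075 counts. Pearson correlations of log2 CPM across genes, which are not independent replicates, were 0.971 between MHE libraries, 0.942 between PBS libraries and 0.864 to 0.896 across the groups. Mature adipocyte markers summed to 12896 to 20928 CPM with the extract, against 25172 to 35569 CPM with saline, so adipocyte RNA was present although the label is stromal vascular fraction. The 8 adipocyte progenitor markers summed to 1260 to 1738 CPM with the extract, against 1744 to 2103 CPM with saline, and 6 high endothelial venule markers, from vessels through which lymphocytes enter nodes, to 86.5 to 142 CPM with the extract, against 16.3 to 54.1 CPM with saline. The defining venule mucin Glycam1 was at 72.1 and 28.1 CPM with the extract, and had 2 and 0 counts with saline. The part of lymphoid tissue in the levels of the follicle genes was not tested. Of the members, Cxcr5 shares exonic bases with Bcl9l and Bcl6 with a provisional gene, both on the opposite strand in GENCODE M21, and in the RefSeq table the extents of Cr2 and Fcer2a also touch other genes. Among the other genes named, Bach2, Cd22, Cd55, Lyn, Elmo1, Stab2, Gna13, Nfkb2, Ezh2, Stat5a, Gas6 and Bst1 overlap models on the opposite strand. So do Maf, Il6ra and Csf1r, and Map3k14 overlaps one on the same strand.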

How the data were processed

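Read counts per gene symbol were deposited by the authors as whole numbers that are not normalized, 1 file for each of 4 libraries. The build mm10 and the tools TopHat2, limma and edgeR are named per the submitters' processing notes; for the counting program, annotation, strand use and versions, the sources used here give nothing. The labels' protocols speak of triplicate libraries, and 2 per group were analysed here.

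edgeR 4.0.16 (R 4.3.3) was run with filterByExpr (minimum count 10, total 15), TMM factors and a robust quasi-likelihood fit, with Benjamini-Hochberg adjustment over 16196 genes. SE is the log2 fold change over the square root of F. The common biological coefficient of variation was 33.6%. On simulated data (4 draws, 16196 genes), 283, 258 and 259 genes were changed 2-fold, 4-fold and 16-fold over all draws. The procedure recovered 4.95%, 62.8% and 86.1% of them. Of the calls, 15.5% were false, a larger share than the threshold of 0.05 aims at. These rates depend on the share of changed genes, which was not matched to the data, where 799 genes passed. They therefore do not carry over to the calls reported here. No library pair agreed within sampling noise (chi-square per degree of freedom 134 to 524). The members, lists and rules were chosen with earlier results of these data known. The gene lists were described by counts and medians, with up to 4 other genes of smallest p named from each and genes at 0 counts in a group; the likeness rule named 2 genes for each member. An exact permutation of 2 against 2 libraries cannot pass a threshold of 0.05. Named outside that rule, after their values were seen, were Gcsam, Pdcd1, Clu, Lta, Ltb, Ltbr, Tnfrsf1a, Ccr7, Gna13, Ccl21a, Prdm1, Itgb5, Gas6, Axl, Mertk, C3, Adam10 and Jchain. So were Maf, Cd200, Il6ra, Lyz2, Fcgr1, Mrc1, Cd163, Cnn1, Rgs5, Pdgfrb, Cspg4, Chst4 and Gcnt1. Some genes that the rule or the lists hold are not reported here. Alternatives were DESeq2 1.42.0, median-of-ratios factors, scaling by library totals, limma-voom 3.58.1, the legacy = FALSE setting, no filter, a stricter filter, a replicate block and each library left out.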

Additional observations from a re-analysis of the deposited data

How the results depend on the processing

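DESeq2 called 2951 genes (1714 higher, 1237 lower), against 799 with edgeR's quasi-likelihood test. Leaving out 1 library, the count ran from 0 to 2750, and members past the threshold from 0 to 6, against 4; in these fits a lone library is assumed to vary like the other group. Log2 fold changes then ran from 6.35 to 9.06 for Cr2, 5.41 to 8.38 for Fcer2a, 2.02 to 2.69 for Cxcl13, 4.06 to 6.12 for Cxcr5, -0.09 to 1.24 for Bcl6, -1.52 to -1.27 for Mfge8 and -0.94 to 0.75 for S1pr2. Without the low-count filter 2 members passed, since Fcer2a (6.26) and Cxcr5 (4.77) lost their calls, and 20468 genes were then tested. Mfge8 passed with DESeq2 (-1.43) and limma-voom (-1.39), as it did without PBS replicate 2 (-1.52), and did not in the other fits. Library totals moved the median of all genes by 0.16, and no member changed direction.

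With 3 B cell genes (Ms4a1, Cd79a and Cd79b) as the denominator, chosen after seeing the data in place of a planned short list that is not reported here, the log2 difference relative to B cell markers was 1.71 for Cr2 (4.58 with 12 markers), 0.84 for Fcer2a (3.71), -3.65 for Cxcl13 (-0.78), -0.92 for Cxcr5 (1.95, so its sign turned), -5.44 for Bcl6 (-2.57), -7.41 for Mfge8 (-4.53) and -6.14 for S1pr2 (-3.27). Ebf1 made up 95.2% of the 12-marker sum in PBS replicate 2. Leaving out 1 library, chosen after seeing the data, the 12-marker value ran from 3.29 to 5.88 for Cr2, 2.29 to 5.14 for Fcer2a, -0.99 to -0.56 for Cxcl13, 0.98 to 2.92 for Cxcr5, -3.30 to -1.83 for Bcl6, -4.66 to -4.40 for Mfge8 and -4.04 to -2.49 for S1pr2.

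Same-numbered libraries share only a number, since the labels give no pairing, and their deviations from the group means correlated at 0.12 over genes. With the replicate block 764 genes passed, the same count of 4 members did, and follicular helper T cell genes past the threshold were 3 against 6. Of the gene lists, DESeq2 called more than 1.5 times as many as edgeR in germinal centre (5 against 1), follicular dendritic cell (8 against 5), lymphotoxin (10 against 6), complement receptor (5 against 0), B cell (10 against 2), venule (4 against 1) and adipocyte progenitor genes (3 against 1), all higher, and in smooth muscle (5 against 1) and adipocyte genes (3 against 1), lower; it also called 1 lower gene, against 0, in the follicular dendritic cell, lymphotoxin, uptake, complement receptor and progenitor lists. limma-voom called 7 B cell markers, 2 complement receptor genes and 1 lower follicular dendritic cell gene. Germinal centre genes past the threshold were 2 with limma-voom, legacy = FALSE and either other filter. BCL6 partners were 3, against 2, with library totals, DESeq2, limma-voom, legacy = FALSE and either other filter. Library totals gave 1 complement receptor and 2 progenitor genes. Without the low-count filter 4 follicular helper genes passed against 6, 3 positioning genes against 5, 4 follicular dendritic cell genes against 5, 8 T cell markers against 10 and 1 B cell marker against 2. The block gave 2 lower smooth muscle genes and 1 lower progenitor gene. List medians near 0 changed sign with library totals: uptake genes to 0.07 (-0.08), macrophage markers to 0.07 (-0.05) and progenitor markers to 0.14 (-0.03). Other list counts moved by 2 or fewer, apart from the fits that leave out a library. The cause of changes not stated here was not tested. Depth limits Cr2 and Fcer2a in saline, on 6 and 11 counts in PBS replicate 2.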

Other observations

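Plasma cells are an outcome of germinal centre reactions. Of 8 listed genes of these cells, 1 passed, Irf4, at a median log2 fold change of 0.99 (1.66 without PBS replicate 1, 0.25 without PBS replicate 2). Jchain, the joining chain of secreted antibodies, was at 73.0 and 180 CPM in MHE replicates 1 and 2, and at 108 and 1.93 CPM in PBS replicates 1 and 2 (1.2 ± 1.55, adjusted p = 0.639). Its higher extract library was MHE replicate 2, and PBS replicate 1 lay between the extract libraries. Mzb1, an endoplasmic reticulum chaperone of B and plasma cells that shares exonic bases with another gene, was at 30.3 and 28.4 CPM with the extract, against 7.72 and 0.169 CPM with saline (2.9 ± 1.35, adjusted p = 0.231). Sdc1, syndecan-1, which epithelium and stroma also carry, had -1.21 ± 0.50 (adjusted p = 0.189).

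PBS replicate 1 had more of every B cell marker listed than PBS replicate 2 except Ebf1, with 1910 and 84 counts over Ms4a1, Cd79a and Cd79b. Of 15919 genes with counts in both saline libraries, 4.54% differed at least 4-fold in that direction, and Cr2, Fcer2a and Cxcr5 were among them.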
